A study of Mus musculus with 24 samples.

Results

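The 90 genes described here carry the names of subunits of the mitochondrial oxidative phosphorylation chain. They were taken by name alone, from the gene names of an Agilent mouse array: every name that begins with Ndufa, Ndufb, Ndufc, Ndufs, Ndufv, Uqcr, Atp5 or one of Cox4 to Cox8, and the 4 succinate dehydrogenase genes Sdha, Sdhb, Sdhc and Sdhd. Of the 90, 36 encode subunits of complex I, 4 of complex II, 8 of complex III, 19 of complex IV and 15 of complex V. The other 8 share only the name pattern. They are the complex I assembly factors Ndufaf1, Ndufaf2, Ndufaf3 and Ndufaf4, the supercomplex factor Cox7a2l, Atp5s and Atp5sl (now Dmac2l and Dmac2), and Cox4nb (now Emc8), which belongs to an endoplasmic reticulum complex and not to the chain. The array held 35019 genes in all, and 23506 entered the tests. Of the 90, 88 did so, and each of the 88 was well above background on all 24 arrays. The 2 others, Cox7b2 and Cox8c, which are known for expression in testis, reached that level on 0 of 24 arrays.

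RNA of the mouse aorta was measured on 24 one-colour arrays, in 8 groups of 3 that the series calls biological replicates. The mice were C57BL/6, either IL-17 knockouts or wild type, all on normal chow. In each genotype the groups were salt with infusion (1% NaCl in the drinking water and an infusion of β-aminopropionitrile, BAPN, with angiotensin II), infusion alone, salt alone, and controls on plain water with vehicle. Salt was given before and during the 3 days of infusion. BAPN inhibits lysyl oxidase, an enzyme that crosslinks the fibres of the vessel wall, and with angiotensin II, a vasoconstrictor hormone, it is used to bring on aortic dissection in mice. The labels do not say which IL-17 gene was deleted, nor the age or sex of the mice.

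Oxidative phosphorylation takes electrons from NADH at complex I and from succinate at complex II, passes them through complexes III and IV to oxygen, and uses the resulting proton gradient to make ATP at complex V. Nearly all subunits are encoded in the nucleus, a few core subunits of complexes I, III, IV and V by mitochondrial DNA. Some subunits of complex IV come as pairs, with an isoform typical of heart, skeletal muscle and brown fat (Cox6a2, Cox7a1, Cox8b) and one found in most tissues (Cox6a1, Cox7a2, Cox8a). The wall of the aorta is mostly smooth muscle, but fat with brown character surrounds it in the mouse, and the heart adjoins its root.

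The region just before the gene start was examined first, because it does not depend on the arrays. Of the 90 members, 74 were matched by symbol to a RefSeq table of promoters (GRCm38.p6), and the 250 bases before the start were searched for GCGC, 2 bases of any kind and GCGC again, the palindromic core bound by nuclear respiratory factor 1, and for CCGGAAG or its reverse complement CTTCCGG, an ETS core of the kind that nuclear respiratory factor 2 binds. These factors are known as regulators of respiratory chain genes. Of the 74 members 16 held the first core (21.6%), against 5.64% of the 27025 genes in the table. For the ETS core it was 13 members (17.6%), against 7.83% of all genes. Either core stood in 26 members (35.1%), against 12.6% of all genes, and in 7 of 14 members of complex V, 11 of 32 of complex I and 2 of 13 of complex IV. The median GC content of the window was 56.4% in the members and 52.0% in all genes. The part of base composition in these shares was not tested, and a match is a match of letters only. The 5 promoters below are shown because the results turn on these genes or on their isoform partners. Capitals mark the cores.
Sdha, chr13:74350241-74350490 (- strand): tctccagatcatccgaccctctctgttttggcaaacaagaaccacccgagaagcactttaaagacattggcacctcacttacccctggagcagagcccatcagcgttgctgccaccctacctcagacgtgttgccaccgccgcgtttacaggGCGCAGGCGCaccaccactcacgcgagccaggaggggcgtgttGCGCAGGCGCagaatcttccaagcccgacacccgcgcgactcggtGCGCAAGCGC
Ndufab1, chr7:122101849-122102098 (- strand): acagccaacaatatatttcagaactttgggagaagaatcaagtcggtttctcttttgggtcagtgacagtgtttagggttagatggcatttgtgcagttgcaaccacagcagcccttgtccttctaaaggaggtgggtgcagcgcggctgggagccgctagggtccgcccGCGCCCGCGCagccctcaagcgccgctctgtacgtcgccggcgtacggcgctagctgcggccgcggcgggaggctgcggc
Cox6a1, chr5:115348959-115349208 (- strand): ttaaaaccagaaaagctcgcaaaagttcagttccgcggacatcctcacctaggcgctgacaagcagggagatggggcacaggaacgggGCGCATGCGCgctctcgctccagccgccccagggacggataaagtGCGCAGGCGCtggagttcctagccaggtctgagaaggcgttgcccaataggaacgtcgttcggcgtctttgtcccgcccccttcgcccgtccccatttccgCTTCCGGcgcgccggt
Cox7a1, chr7:30183921-30184170 (+ strand): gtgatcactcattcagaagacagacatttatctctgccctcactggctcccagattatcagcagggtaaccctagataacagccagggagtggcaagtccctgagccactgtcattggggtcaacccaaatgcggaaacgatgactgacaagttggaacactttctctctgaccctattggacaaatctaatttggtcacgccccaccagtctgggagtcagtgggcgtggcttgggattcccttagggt
Cox8b, chr7:140900447-140900696 (- strand): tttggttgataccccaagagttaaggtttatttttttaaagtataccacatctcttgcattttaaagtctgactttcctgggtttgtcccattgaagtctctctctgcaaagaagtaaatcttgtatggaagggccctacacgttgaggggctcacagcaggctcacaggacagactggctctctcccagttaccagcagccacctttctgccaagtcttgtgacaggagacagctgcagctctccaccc
The Sdha window held 3 copies of the first core and the Ndufab1 window 1. The Cox6a1 window held 2 copies and an ETS core near the start. Neither core was in the windows of Cox7a1 and Cox8b, which are the isoforms of muscle and brown fat. The same held for Cox7a2 and Cox8a, their partners in most tissues, so the lack of a core does not set the tissue isoforms apart. The windows of Ndufa6, Ndufb10 and Atp5g1, described below, also held neither core.

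Some facts of the arrays bear on every value. Levels are given as normalised log2 signal, the log2 of the processed signal minus the 75th percentile of the same array. Differences between groups were taken only within a probe. The arrays lay on 4 slides. Slides 1 and 2 held knockouts and slides 3 and 4 wild types, so genotype and slide cannot be told apart. Wild-type infusion alone and knockout salt with infusion were also compared with controls on another slide. Between 51.1% and 60.8% of spots were well above background. Array 3 of the infusion-only group stood apart in the knockout and less so in the wild type. Across 88 members it lay below both other arrays of its group for 75 members in the knockout and for 60 in the wild type. On knockout array 3 the mean level of 9 smooth muscle markers was 5.46, against 4.34 and 4.31 on arrays 1 and 2 and 5.35 to 5.43 in the controls. On wild-type array 3 it was 5.62, against 5.26 and 5.15 on arrays 1 and 2 and 5.79 to 5.94 in the controls. Results for infusion alone are therefore also given without these arrays. Knockout array 3 of infusion alone lay on slide 2, while arrays 1 and 2 lay on slide 1 with the controls. What sets this array apart and its slide cannot be told apart, also where it is left out. Wild-type array 3 of salt with infusion lay on slide 4, while arrays 1 and 2 of that group lay on slide 3. All 9 smooth muscle markers were well above background on all 24 arrays. In bulk tissue, fewer cells of a type and less RNA per cell cannot be told apart.

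Infusion alone left most of the chain within a narrow band. In the knockout, 7 of 88 members rose and 5 fell (13.6%), against 30.6% of all genes tested. Wild-type mice had 2 that rose and 8 that fell (11.4%), against 25.9% of all genes. The median log2 change of the members was 0.12 in the knockout and −0.01 in the wild type, and that of all genes −0.04 and −0.02. The calls rest on limma with Benjamini-Hochberg adjustment over all 23506 genes, at a threshold of 0.05. Of the 88 members, 80 changed by less than 0.5 on the log2 scale in the knockout (90.9%) and 82 in the wild type (93.2%), against 64.8% and 67.6% of all genes. The median standard error of a change was 0.13 for the members and 0.21 for all genes, so the members were measured with the smaller error. The members were also brighter, with a median level of 5.24, against −0.37 for all genes. Of the members, 96.6% lay above the median gene. The shares were not compared at a like level of signal.

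Salt with infusion gave shares of the same size. In the knockout 4 members rose and 5 fell (10.2%), against 25.5% of all genes. Of the 88, in the wild type 5 rose and 4 fell (10.2%), against 28.7% of all genes. The medians of the members were 0.03 in the knockout and 0.11 in the wild type, and those of all genes −0.02 and −0.07. Over the 4 comparisons of an infused group with controls, 16 members (18.2%) passed the threshold at least once, against 45.6% of all genes, and 72 never did. None passed in both directions. In each genotype the comparisons with infusion alone and with salt and infusion share their control arrays.

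**Figure D1:**
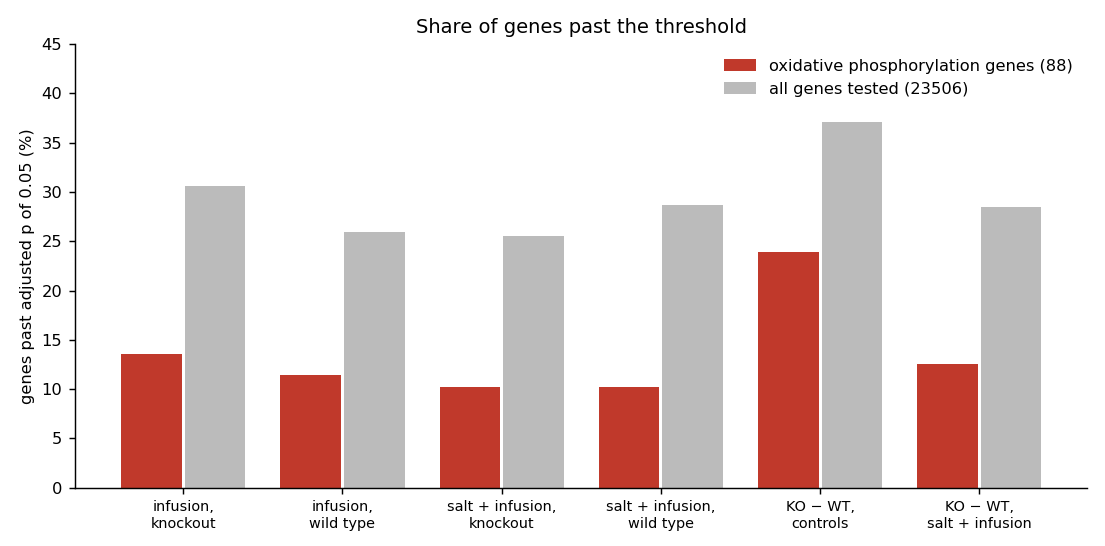
Bars give the percentage of genes past an adjusted p of 0.05 in 6 comparisons, for the 88 oxidative phosphorylation genes (red) and for all 23506 genes tested (grey). In each of the 6 comparisons the red bar is the shorter, from 13.6% against 30.6% for infusion in the knockout to 12.5% against 28.5% for knockout against wild type with salt and infusion.

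How many members fell depended on the scaling. With quantile normalisation in place of the 75th percentile, 5 members rose and 17 fell with infusion in the knockout, and 2 rose and 21 fell in the wild type. With salt and infusion, 4 rose and 11 fell in the knockout and 4 rose and 17 fell in the wild type. The member medians then moved to −0.02 and −0.10 with infusion alone and to −0.06 and −0.02 with salt and infusion, in the same order of genotypes. The authors' processed values gave the same splits apart from 16 members lower for salt with infusion in wild-type mice. With normexp background correction 3 rose and 6 fell with infusion in the wild type, and 6 rose and 3 fell with salt and infusion. The share of members past the threshold was below that of all genes in all 72 fits of these 4 comparisons, counting each setting and each left-out array.

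More members were called higher when array 3 of both infusion-only groups was left out, a choice made after those arrays were seen to lie low for most members. In the knockout 34 members then rose and 3 fell, against 45% of all genes past the threshold. Among wild-type mice 10 rose and 7 fell, against 40.1% of all genes. The member medians were 0.23 in the knockout and 0.06 in the wild type. Within slide 1, which held the knockout controls and arrays 1 and 2 of infusion, 31 members rose and 2 fell. For single arrays of the knockout, 26 members passed without infusion array 3, 6 without infusion array 1 and 5 without control array 1. For the wild type, 5 passed without infusion array 2 and 6 without control array 2. For salt with infusion in the knockout 3 passed without control array 1, 3 without array 3 of the infused group and 5 without its array 1. In the wild type it was 5 without control array 1, 4 without array 1 of the infused group and 5 without its array 3.

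**Figure D2:**
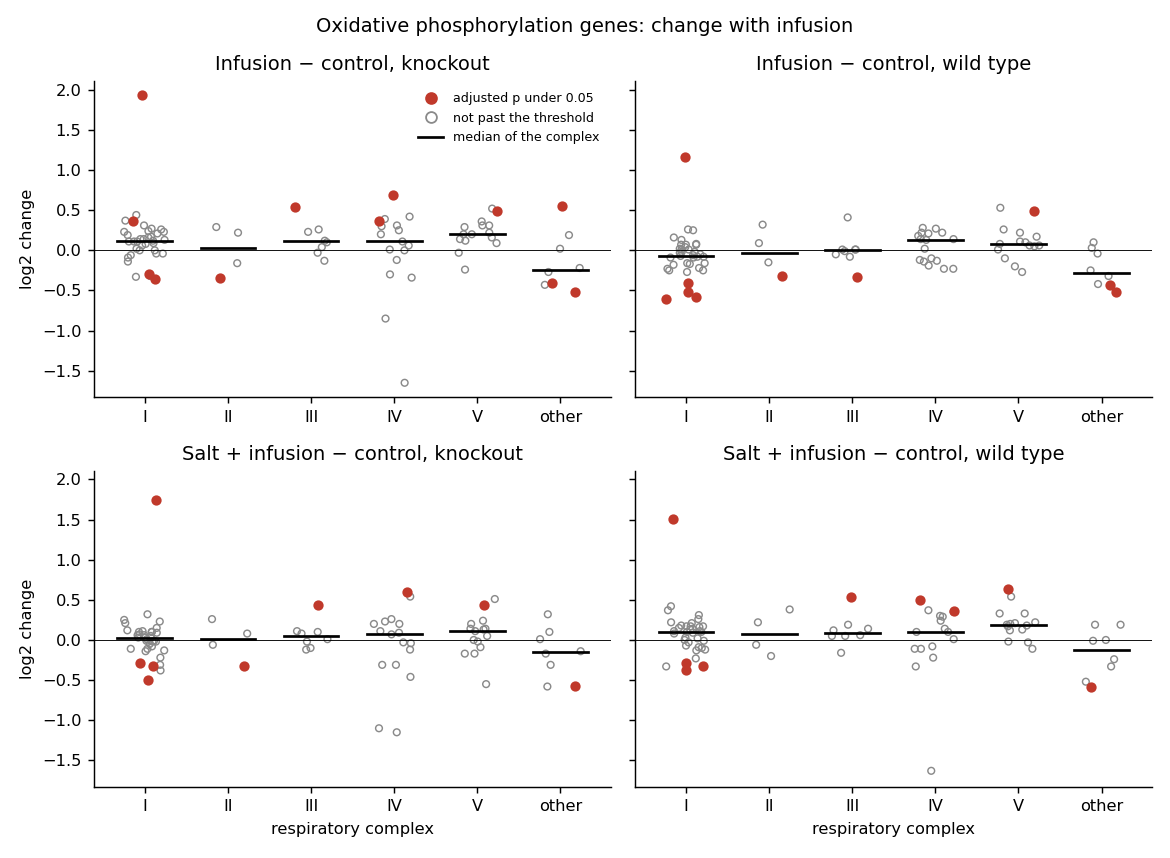
Each point is 1 member and its log2 change from controls, in 4 panels for infusion alone (top) and salt with infusion (bottom), knockout left and wild type right. Red points passed an adjusted p of 0.05, open points did not, and black lines are the medians of each complex. The highest point of every panel is Ndufab1, and most other members lie within 0.5 of 0.

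Complex I, which oxidises NADH, held the highest change of each comparison and several members that fell. Ndufab1, the mitochondrial acyl carrier protein, is both a subunit of complex I and part of mitochondrial fatty acid synthesis. Its probe (mm9 chromosome 7, 129231667 to 129231726) gave 0.88, 0.61 and 0.82 with salt and infusion in the knockout and 1.53, 1.19 and 0.16 with infusion alone, against −1.0, −1.0 and −0.91 in knockout controls. Wild-type arrays gave 0.22, −0.13 and 0.91 with salt and infusion and 0.56, 0.20 and −0.81 with infusion alone, against −1.10, −1.23 and −1.2 in controls. All 12 infused arrays lay above all control arrays of their genotype, and array 3 was the lowest of the infusion-only arrays in both genotypes. The log2 change was 1.74 ± 0.33 (SE, adjusted p = 0.00128) with salt and infusion and 1.93 ± 0.33 (adjusted p = 0.000526) with infusion alone in the knockout. In the wild type it was 1.51 ± 0.33 (adjusted p = 0.0032) and 1.16 ± 0.33 (adjusted p = 0.0163). The call for infusion in the wild type was lost without its array 1 or its array 2 (adjusted p up to 0.0942 and log2 change down to 0.87), and with slide as a block, where the change was 0.30 (adjusted p = 0.779). Only 1 probe measured this gene.

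Ndufa6 and Ndufb10, accessory subunits of complex I, fell in all 4 comparisons. Ndufa6 (mm9 chromosome 15, 82181444 to 82181503) gave 4.41, 4.24 and 4.24 with salt and infusion and 4.35, 4.67 and 4.27 with infusion alone, against 4.93, 4.75 and 4.70 in knockout controls. The wild-type values were 4.07, 4.15 and 4.33 and 4.16, 3.84 and 3.96 in the same groups, against 4.48, 4.57 and 4.48 in controls. No infused array reached the controls of its genotype. The log2 change was −0.50 and −0.36 in the knockout and −0.32 and −0.52 in the wild type, for salt with infusion and for infusion alone. It remained past the threshold without any single array for salt with infusion in the knockout and infusion in the wild type, but the first of these was lost with slide as a random block (adjusted p = 0.106). It did not for infusion in the knockout, where 2 of 6 such fits passed (adjusted p up to 0.114), nor for salt with infusion in wild-type mice, where 1 of 6 passed (up to 0.163).

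Ndufb10 changed by −0.32 and −0.29 on the log2 scale in the knockout and by −0.29 and −0.41 in the wild type, again for salt with infusion and for infusion alone. Its call held without any single array only for infusion in the wild type, and there it was lost with slide as a random block (adjusted p = 0.0901), as was that for salt with infusion in the knockout (adjusted p = 0.227). In the 3 other comparisons the adjusted p without 1 array reached 0.0975, 0.127 and 0.115, for salt with infusion in the knockout, infusion in the knockout and salt with infusion in wild-type mice. Ndufs7, a core subunit that carries the iron-sulfur cluster next to the quinone site, gave 5.23, 4.85 and 5.12 with infusion in the wild type, against 5.52, 5.69 and 5.75 in controls. The infused arrays lay below the controls, and the change of −0.58 ± 0.10 (SE, adjusted p = 0.000834) held without any single array. Under salt with infusion it changed by −0.37 in the wild type (adjusted p = 0.0126) and by −0.29 in the knockout (adjusted p = 0.049), and the knockout call was lost in all 6 fits without an array. Ndufb3, another accessory subunit, fell by 0.61 on the log2 scale with infusion in the wild type, and this call was lost without control array 2 (adjusted p = 0.0537). Ndufv2, a core subunit of the arm that oxidises NADH, rose by 0.37 with infusion in the knockout, a call that held in 1 of 6 fits without an array. By role, 1 of 7 core subunits of complex I passed in each of the 4 comparisons, and 3 to 4 of 29 accessory subunits.

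**Figure D3:**
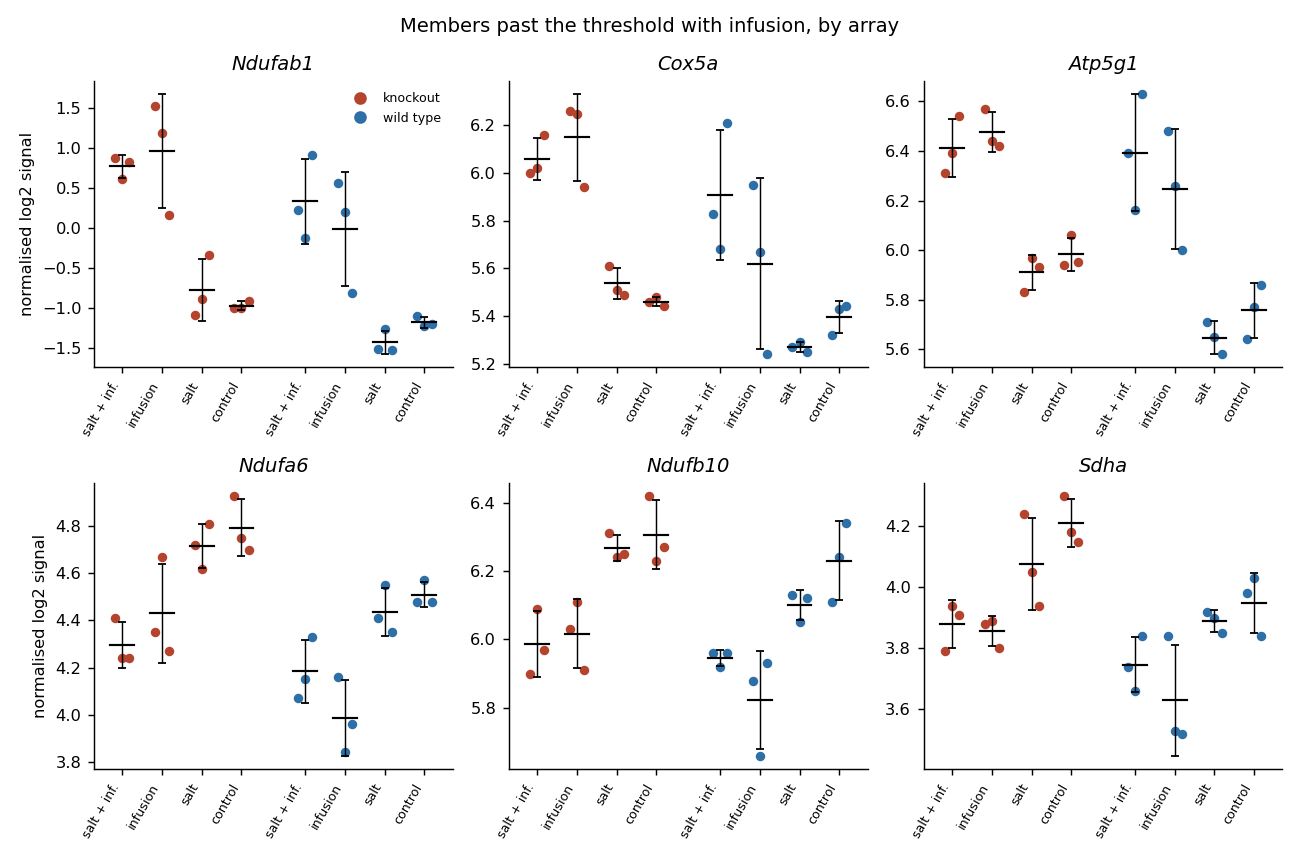
Normalised log2 signal of 6 members on each array (points), with the group mean and its SD (bar and whiskers, n = 3), knockout in red and wild type in blue. By group mean, Ndufab1, Cox5a and Atp5g1 (brighter probe) are higher in infused than in control groups, Ndufa6, Ndufb10 and Sdha lower. Not all of these differences passed, and the second Atp5g1 probe went the other way. The salt groups lie near their controls.

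In complex II, Sdha, the flavoprotein that oxidises succinate, fell in 3 of the 4 comparisons. It gave 3.79, 3.94 and 3.91 with salt and infusion and 3.88, 3.89 and 3.80 with infusion alone, against 4.30, 4.18 and 4.15 in knockout controls. All 6 infused knockout arrays lay below the controls, with log2 changes of −0.33 (adjusted p = 0.0259) and −0.35 (adjusted p = 0.0157). Arrays of wild-type mice gave 3.74, 3.66 and 3.84 with salt and infusion and 3.84, 3.53 and 3.52 with infusion alone, against 3.98, 4.03 and 3.84 in controls. The change with infusion alone was −0.32 (adjusted p = 0.0297), and it did not pass with salt and infusion. The calls held in 5 of 6 fits without an array for infusion in the knockout and in 2 of 6 for the 2 other calls (adjusted p up to 0.0988 for salt with infusion in the knockout and up to 0.139 for infusion in the wild type). Both of those were lost with slide as a random block (adjusted p = 0.163 and 0.133). The other subunits of this complex did not pass in any of these comparisons. The iron-sulfur protein Sdhb averaged 5.50 with salt and infusion and 5.64 with infusion alone in the knockout, against 5.42 in knockout controls, and 5.34 and 5.21 in the same wild-type groups, against 5.12 in wild-type controls. Sdhd, a membrane anchor, had its largest change with salt and infusion in wild-type mice, 0.38 (adjusted p = 0.0596).

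In complex III, Uqcrq, a small subunit next to cytochrome b, rose by 0.44 with salt and infusion (adjusted p = 0.0418) and by 0.54 with infusion alone (adjusted p = 0.013) in the knockout, and by 0.53 with salt and infusion in wild-type mice (adjusted p = 0.0158). Without 1 array the adjusted p reached 0.123, 0.0619 and 0.0878, so none of the 3 calls held in every such fit. Uqcrc1, a core protein of the complex, fell by 0.33 on the log2 scale with infusion in the wild type (adjusted p = 0.0356), a call that held in 2 of 6 such fits.

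In complex IV, cytochrome c oxidase, the nuclear subunit Cox5a rose. It gave 6.00, 6.02 and 6.16 with salt and infusion and 6.26, 6.25 and 5.94 with infusion alone, against 5.46, 5.48 and 5.44 in knockout controls. The knockout groups did not overlap, and the log2 changes of 0.60 (adjusted p = 0.00703) and 0.69 (adjusted p = 0.00249) held without any single array. Wild-type mice gave 5.83, 5.68 and 6.21 with salt and infusion, against 5.32, 5.43 and 5.44 in controls, a change of 0.50 (adjusted p = 0.0182) that was lost without control array 1 or array 3 of the infused group (adjusted p up to 0.116). With infusion alone in the wild type Cox5a gave 5.95, 5.67 and 5.24, which overlapped the controls. Cox5b, another nuclear subunit, rose by 0.37 with infusion in the knockout and by 0.36 with salt and infusion in wild-type mice. These 2 calls held in 1 and 2 of 6 fits without an array and were lost with quantile normalisation. The Cox5b probe lies on chromosome 15 in the array's mm9 annotation, while the gene is on chromosome 1. A second probe of the gene gave 0.43 in the knockout, the larger of both values. No member of complex IV passed with infusion alone in the wild type, where Cox4i1 had the smallest p (log2 change −0.23, adjusted p = 0.076).

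In complex V, the ATP synthase, Atp5g1 encodes subunit c of the rotating ring, and Atp5g2 and Atp5g3 encode the same mature protein. The brighter Atp5g1 probe (mm9 chromosome 11, 95934315 to 95934374) gave 6.31, 6.39 and 6.54 with salt and infusion and 6.57, 6.44 and 6.42 with infusion alone, against 5.94, 6.06 and 5.95 in knockout controls. Their wild-type counterparts were 6.39, 6.16 and 6.63 and 6.48, 6.26 and 6.00 in the same groups, against 5.64, 5.77 and 5.86 in controls. All 12 infused arrays lay above their controls. The log2 changes were 0.43 and 0.49 in the knockout and 0.64 and 0.49 in the wild type, for salt with infusion and for infusion alone, each past the threshold. A second Atp5g1 probe went the other way with infusion in the knockout (−0.55, past the threshold), and with salt and infusion in the knockout it gave −0.50. On wild-type arrays the second probe gave −0.52 with salt and infusion and −0.34 with infusion alone, neither past the threshold. For salt with infusion and for infusion alone, the mean of both probes was −0.04 and −0.03 in the knockout and 0.06 (adjusted p = 0.727) and 0.07 (adjusted p = 0.667) in the wild type, so the direction of this gene rests on the probe. For salt with infusion in the knockout the call held in 3 of 6 fits without an array (adjusted p up to 0.0902). The wild-type call for infusion was lost without array 1 of the infused group (adjusted p = 0.0565). Atp5g2 averaged 6.98 and 7.09 in the infused knockout groups, with salt and without, against 6.78 in controls, and Atp5g3 6.12 and 6.21, against 6.00 in controls. Neither passed in these comparisons.

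Among the 8 members outside the complexes, Atp5sl, an assembly factor of the complex I membrane arm, fell by 0.59 with salt and infusion (adjusted p = 0.00435) and by 0.52 with infusion alone (adjusted p = 0.00966) in the wild type, and by 0.41 with infusion alone in the knockout (adjusted p = 0.0292). The first call held without any single array. Without infusion array 2 the second had an adjusted p of 0.0814, and the third held in 2 of 6 fits. Cox7a2l, which helps complexes III and IV join into supercomplexes, fell in the knockout by 0.57 with salt and infusion and by 0.52 with infusion alone. The first call held in 3 of 6 fits without an array and was lost with slide as a random block (−0.15, adjusted p = 0.622) and with slide as a block, where the sign turned (0.18, adjusted p = 0.53). Without infusion array 3 the second was −0.27 and did not pass. Ndufaf4, a complex I assembly factor, rose by 0.55 with infusion in the knockout (adjusted p = 0.00617), in every fit without 1 array. Ndufaf3, its partner in assembly, fell by 0.43 with infusion in the wild type (adjusted p = 0.0258), in 3 of 6 such fits.

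Markers of other cells moved with infusion beside these members. Of all genes, 12.7% and 14.4% rose in the knockout and 13.2% and 12.2% in the wild type, for salt with infusion and for infusion alone. All 7 tested markers of dividing cells rose in each of the 4 comparisons, with a median log2 change of 4.65 and 4.41 in the knockout and 4.17 and 4.2 in the wild type, for salt with infusion and for infusion alone. Their summed linear level, in units of the array's 75th percentile, was 46.1 to 75.6 and 13.9 to 88.5 in the infused knockout groups, against 1.90 to 3.26 in knockout controls, and 26.4 to 67.4 and 23.3 to 66.9 in the infused wild-type groups, against 1.97 to 3.85 in wild-type controls. Of 9 macrophage markers, 5 and 6 rose in the knockout and 5 and 8 in the wild type. Their sum was 153 to 172 and 140 to 189 in the infused knockout groups, against 115 to 126 in controls, and 185 to 208 and 207 to 241 in the infused wild-type groups, against 153 to 202 in controls. The part of these cells in the changes of the members was not tested.

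No difference between the genotypes in the response to infusion passed for a member. For infusion alone 0 of 88 members passed the test of the difference itself (limma, adjusted p), 5 at an unadjusted p under 0.05, against 0% and 6.56% of all genes. For salt with infusion 0 of 88 passed, 2 at an unadjusted p under 0.05, against 0.0255% and 6.07% of all genes. The smallest p with infusion alone belonged to Ndufs7, whose change was 0.44 ± 0.15 (SE) higher in the knockout than in the wild type (adjusted p = 0.592), then to Atp5g3 (0.49, adjusted p = 0.662) and Ndufaf4 (0.45, adjusted p = 0.727). With salt and infusion they were Cox6a2 (−1.51, adjusted p = 0.785), Atp5sl (0.41, adjusted p = 0.817) and Atp5c1, a stalk subunit of complex V (−0.72, adjusted p = 0.908).

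Salt changed no member past the threshold. With salt alone, 0 of 88 members passed in the knockout and 0 in the wild type by limma, as did 0% of all genes in each. At an unadjusted p under 0.05 it was 2 and 1 members, against 3.03% and 2.11% of all genes. With salt added to infusion, 0 members passed in either genotype, 2 in the knockout and 1 in the wild type at an unadjusted p under 0.05, against 4.53% and 5.76% of all genes. Quantile normalisation and the authors' processed values also gave 0 in all 4 comparisons.

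The small changes with salt leaned to 1 side within each comparison, though not to the same side in all. With salt alone in the wild type 83 of 88 members were lower than in controls, with a median of −0.14 on the log2 scale, against −0.02 for all genes. In the knockout 66 of 88 were lower, with a median of −0.03. With salt during infusion 78 of 88 members were higher in the wild type (median 0.12), and 71 of 88 lower in the knockout (median −0.11). Of all 23506 genes, 11152 were higher in that wild-type comparison (median −0.02) and 10678 lower in that knockout comparison (median 0.02). With salt alone, 13135 of all genes were lower in the wild type and 12715 in the knockout. With quantile normalisation the member medians were −0.06 and −0.05 for salt alone and 0.04 and −0.03 for salt during infusion, in the wild type and the knockout. Within slide 2 the knockout median for salt during infusion was 0.12, but there infusion alone was represented by its array 3 only, which lay low for most members. With slide as a random block the knockout median was 0.02. The mean level of the 88 members was 4.29 to 4.34 on wild-type salt arrays, against 4.35 to 4.56 in wild-type controls, and 4.60 to 4.64 on knockout salt arrays, against 4.65 to 4.76 in knockout controls. The ranges of salt and control arrays did not overlap in either genotype, but nearly touched.

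Within the complexes the members of smallest p with salt alone in the knockout were Cox7a1 in complex IV (log2 change −0.93), Ndufa9 in complex I (−0.16), Atp5d in complex V (−0.14), Sdha in complex II (−0.13) and Uqcrc1 in complex III (0.06). In the wild type they were Cox8a (−0.24), Ndufs7 (−0.19), Atp5g3 (−0.18), Uqcrc1 (−0.18) and Sdhc (−0.10). For salt during infusion in the knockout they were Atp5c1 (−0.75), Ndufa7 (−0.24), Uqcrh (−0.20), Cox6c (−0.19) and Sdhb (−0.14), and in the wild type Cox8b (−1.50), Atp5g3 (0.26), Ndufs7 (0.21), Uqcrc1 (0.17) and Sdha (0.12). None of these passed.

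Cox8b and Cox6a2, isoforms typical of muscle and brown fat, varied most among the 88 members, and Cox7a1 varied less. The median within-group SD was 0.15 for the members and 0.26 for all genes, but 0.84 for Cox8b, 0.62 for Cox6a2 and 0.25 for Cox7a1. Cox8b (mm9 chromosome 7, 148084852 to 148084911) gave 1.65, 1.72 and −0.91 with salt and infusion, −0.39, −0.08 and 1.26 with infusion alone and 0.40, 0.53 and 0.92 with salt alone, against 2.13, 2.04 and 1.57 in knockout controls. Wild-type aortas gave −1.10, −0.50 and −1.99, then 1.2, 0.14 and −0.44, then 0.30, −1.02 and −0.25 in the same groups, against 0.71, −0.54 and 1.12 in controls. In the knockout the arrays with infusion alone and with salt alone lay below all controls, and those with salt and infusion overlapped them, with 1 array far below the other two. All 3 treated wild-type groups overlapped their controls. No comparison of an infused or salt group with controls passed for Cox8b in the fit of all 8 groups. Infusion in the knockout gave −1.65 ± 0.64 (SE, adjusted p = 0.0575). It passed within slide 1 (−2.14, adjusted p = 0.000525) and without the third infusion-only arrays (−2.14, adjusted p = 0.0164). Both of these fits leave out infusion array 3 (1.26) and compare the same arrays, so they do not count separately. It also passed with slide as a random block (−1.92, adjusted p = 0.0236) and in 1 of 6 fits without an array. Salt with infusion in wild-type mice gave −1.63 (adjusted p = 0.0624) and passed in 2 of 6 fits without an array.

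Cox6a2 (mm9 chromosome 7, 135349160 to 135349219) gave −0.59, −1.36 and −0.36 with salt and infusion, −0.74, −0.75 and 0.11 with infusion alone and −2.13, −0.28 and −1.31 with salt alone, against 1.24, 0.11 and −0.20 in knockout controls. The wild-type arrays read −0.61, −1.19 and −1.05, then −1.63, −1.18 and −0.46, then −2.45, −2.95 and −1.44, against −1.10, −1.54 and −1.28 in controls. Cox7a1 (mm9 chromosome 7, 30970337 to 30970948) gave 0.93, 1.04 and 0.34, then 0.52, 1.01 and 0.79, then 0.19, 0.14 and 0.09, against 1.40, 1.01 and 0.82 in knockout controls. All 3 knockout salt arrays of Cox7a1 lay below the controls, a log2 change of −0.93 ± 0.20 (SE) with an unadjusted p of 0.000217 and an adjusted p of 1. In the wild type Cox7a1 gave 0.46, 0.29 and 0.18, then 0.83, 0.35 and 0.43, then 0.05, 0.18 and 0.33, against 0.72, 0.13 and 0.72 in controls, and the groups overlapped.

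Their partners found in most tissues were steadier but also brighter, and spread was not compared at a like level of signal. Over all 24 arrays Cox8a lay between 6.95 and 7.39, Cox6a1 between 8.10 and 8.59 and Cox7a2 between 4.61 and 5.56. Cox4i2, the isoform of lung and of low oxygen, lay between −0.97 and 0.04, and its partner Cox4i1 between 6.72 and 7.32. None of these 5 passed in a comparison within a genotype.

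Levels of Cox8b followed the mean of the brown fat markers over the arrays, though not each marker. Dio2, on that list, gave 4.78 to 5.2 on infused knockout arrays, against 3.37 to 3.62 in controls. Cox8b gave −0.91 to 1.72 on the same infused arrays, against 1.57 to 2.13 in controls. Ucp1 spanned −4.19 to 1.22 over all arrays and the mean of the list −0.81 to 0.2, so Ucp1 can weigh heavily in that mean. The other tested markers of the list were Cidea, Dio2, Otop1, Kng2, Acot11, Zic1, Ebf2, Prdm16, Ppargc1a, Fabp3 and Cpt1b. Relations with single markers were not tested. The mean level of 12 brown adipocyte markers (among them Ucp1, the uncoupling protein, well above background on 23 of 24 arrays) and Cox8b correlated over the 12 knockout arrays with Pearson's r = 0.94 (permutation p = 1e-05, the smallest that 100000 resamples can give) and Spearman's rho = 0.95 (permutation p = 2e-05). Over the 12 wild-type arrays r was 0.87 (permutation p = 0.00026) and rho 0.87 (permutation p = 0.0004). Without the 2 arrays farthest from the median of the markers r was 0.90 and 0.78. Within slide 1 (8 knockout arrays) r was 0.93 (exact permutation p = 0.00062), and within slide 3 (8 wild-type arrays) 0.87 (exact permutation p = 0.00568). The pairs were chosen after their values were seen, in a family of 18 relations of 3 isoforms with 3 lists in 2 genotypes, and after Benjamini-Hochberg adjustment these 2 had p = 0.00018 and p = 0.00234 (permutation). They pool 4 groups per genotype. Within slide 1 Cox8b went as closely with the cardiac markers (r = 0.95, exact permutation p = 0.000521) and with the skeletal muscle markers (r = 0.84, exact permutation p = 0.00868). Over the 12 knockout arrays these gave r = 0.50 (permutation p = 0.101, adjusted p = 0.183) and r = 0.58 (permutation p = 0.0511, adjusted p = 0.115).

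The other relations did not pass after adjustment. Cox7a1 and the brown adipocyte markers gave r = 0.62 and rho = 0.66 in the knockout (permutation p = 0.0348 and 0.0217) and r = 0.61 and rho = 0.48 in the wild type (permutation p = 0.0373 and 0.114), with an adjusted p of 0.0958 for both r. Without the 2 farthest arrays r was 0.64 and 0.40, and within slides 1 and 3 it was 0.52 and 0.41. Cox6a2 and 8 cardiac muscle markers gave r = 0.69 and rho = 0.84 in the knockout (permutation p = 0.013 and 0.0013) and r = 0.52 and rho = 0.45 in the wild type (permutation p = 0.085 and 0.148). The adjusted p were 0.0778 and 0.17. Without the 2 farthest arrays r was 0.49 and 0.70, and within slides 1 and 3 it was 0.66 and 0.76. Cox6a2 and the skeletal muscle markers gave r = 0.62 in each genotype (permutation p = 0.0309 in the knockout and 0.0313 in the wild type). Their rho was 0.80 and 0.49 (permutation p = 0.00309 and 0.109), with an adjusted p of 0.0958 for both r. Within slides 1 and 3 this r was 0.57 and 0.72, and without the 2 farthest arrays 0.65 and 0.39. Apart from Cox8b with the brown adipocyte markers and Cox6a2 with the cardiac markers in the knockout, no relation had an adjusted p under 0.0958.

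**Figure D4:**
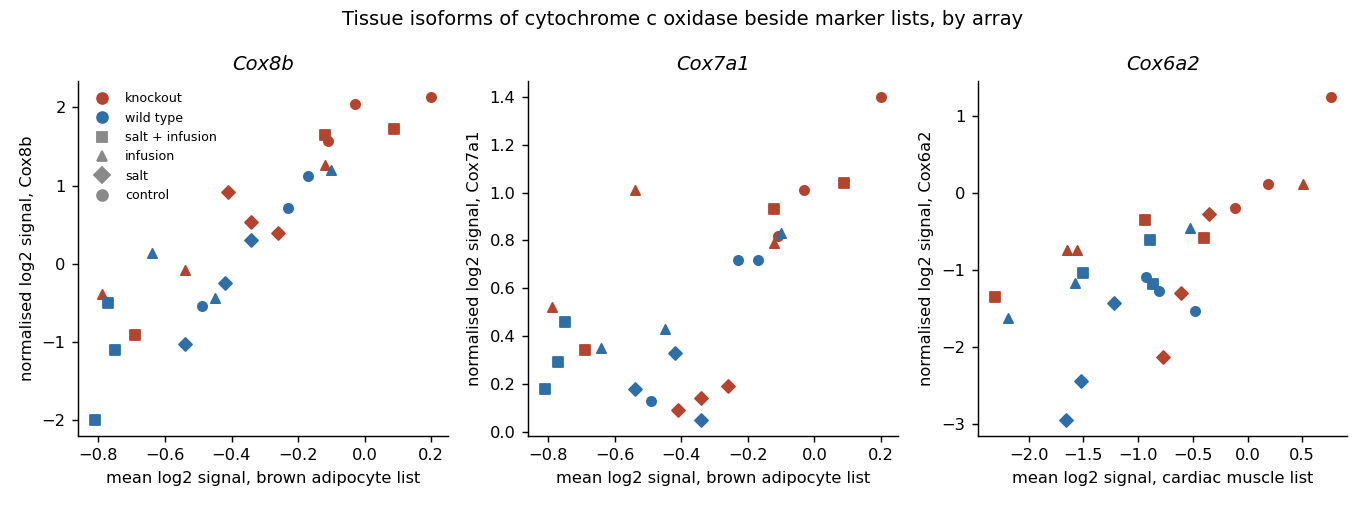
Normalised log2 signal of 3 tissue isoforms of cytochrome c oxidase (vertical axes) against the mean log2 signal of a marker list on the same array (horizontal axes), 24 arrays, knockout in red and wild type in blue, symbols for the treatment. Cox8b rises with the brown adipocyte list in both genotypes (r = 0.94 and 0.87), and Cox7a1 and Cox6a2 scatter more widely.

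The cardiac markers, with Myh6 (a myosin heavy chain of the heart, well above background on 24 of 24 arrays) among them, varied widely from array to array. Their summed linear level was 4.04 to 11.2 with salt and infusion, 5.79 to 26.7 with infusion alone and 12.4 to 14.9 with salt alone, against 16.8 to 27.1 in knockout controls. In the wild type it was 5.68 to 8.93, 3.54 to 9.87 and 5.68 to 8.63, against 7.96 to 11 in controls. The sum of the brown adipocyte markers was 45.6 to 55.8, 44.6 to 62.8 and 42.9 to 45.8 in the knockout groups, against 46.4 to 49.6 in controls, and 34.2 to 43.0, 34.3 to 35.6 and 46.2 to 47.4 in the wild type, against 47.9 to 53.6 in controls. A linear sum gives bright markers the most weight, and among these Dio2 rose where Cidea fell. With infusion alone in the knockout Dio2 gave 5.2, 4.78 and 5.03, against 3.59, 3.37 and 3.62 in controls. Cidea gave 0.43, 1.23 and 2.39, against 2.59, 3.05 and 2.64. The mean log2 level of the brown adipocyte list was −0.79, −0.54 and −0.12, against 0.2, −0.03 and −0.11. The part of fat and heart tissue in the levels of the 3 isoforms was not tested beyond these values.

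Between the genotypes the members leaned to the knockout. In controls 18 members were higher in the knockout than in the wild type and 3 lower (23.9%), against 37.1% of all genes, and the median difference of the members was 0.21, against −0.02 for all genes. Under salt with infusion 8 were higher and 3 lower (12.5%), against 28.5% of all genes, with a median of 0.11. Genotype and slide cannot be told apart here. Spike-in slopes were 0.932 to 0.981 on knockout arrays and 0.884 to 0.908 on wild-type arrays, and their part was not tested. With salt and infusion, quantile normalisation gave 15 higher and 3 lower, against 25.4% of all genes past the threshold. The median difference was then 0.19 for the members and 0.07 for all genes. Normexp background correction gave 24 higher and 1 lower. With slide as a random block 0 members passed in controls and 1 with salt and infusion. Without 1 array the counts were 7 to 12 in controls, the lowest without knockout control array 1, and 4 to 21 with salt and infusion. There the highest came without wild-type array 3, the lowest without knockout array 1 or wild-type array 1 of the salt with infusion groups. The shares of all genes in the fits named were 30.3%, 29.1%, 17.5% and 21.3%, in this order.

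In both comparisons 8 members passed, all in the same direction. These 8 are 38.1% of the members past the threshold in controls and 72.7% of those with salt and infusion. Over all genes these shares were 60% and 78.1%, and 99.9% of the genes past it in both had the same direction. The comparisons share no array but set knockout slides against wild-type slides in each case. Of complex I, Ndufs1, the largest core subunit, gave a difference of 0.55 ± 0.15 (SE, adjusted p = 0.0066) in controls and 0.44 (adjusted p = 0.0319) with salt and infusion, Ndufa9, an accessory subunit, 0.47 and 0.53, and Ndufs7 0.28 and 0.37. Without 1 array Ndufs1 passed in all 6 fits in controls and in 2 of 6 with salt and infusion. Ndufa9 held in 1 and 3 of 6 and Ndufs7 in 1 and 5 of 6. Uqcrc2, a core protein of complex III, gave 0.47 and 0.45, held in 6 and 4 of 6. Of the 7 core subunits of complex I, 4 were higher in the knockout in controls and 3 with salt and infusion, where 14.3% and 10.6% of all genes were higher.

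The 3 that were lower in the knockout in both were Atp5d, the delta subunit of the ATP synthase, Uqcrc1 and Sdhc, a membrane anchor of complex II. Atp5d gave differences of −0.52 ± 0.10 (SE, adjusted p = 0.000553) in controls and −0.65 ± 0.10 (adjusted p = 0.000118) with salt and infusion, both in every fit without 1 array. Uqcrc1 gave 2.57, 2.65 and 2.64 in knockout controls, against 2.98, 2.96 and 3.05 in wild-type controls, and the groups did not overlap (difference −0.37, adjusted p = 0.012). With salt and infusion it gave −0.34 (adjusted p = 0.026), a call held in 2 of 6 fits without an array. Sdhc gave −0.29 in both, held in 2 and 1 of 6 such fits, but its second probe gave −0.03 in controls and 0.19 with salt and infusion. With the mean of both probes the differences were −0.16 (adjusted p = 0.2) and −0.05 (adjusted p = 0.739).

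The largest differences past the threshold were those of Cox6a2 in controls and of Cox8b with salt and infusion. In controls Cox6a2 was 1.69 ± 0.47 (SE) higher in the knockout, a fold of 3.23 (adjusted p = 0.00908), Ndufa4l2, a relative of Ndufa4 that low oxygen induces, 0.77 (adjusted p = 0.0255) and Cox7a1 0.55 (adjusted p = 0.0408). Without 1 array the adjusted p reached 0.0608, 0.0865 and 0.199. None of these genes passed with salt and infusion, where the difference was 0.18 for Cox6a2 and 0.46 for Cox7a1. Ndufa4l2 gave 2.34, 2.42 and 2.45 in knockout controls, against 1.47, 1.93 and 1.49 in wild-type controls, without overlap, and its partner Ndufa4 5.08, 5.0 and 4.93, against 4.49, 4.64 and 4.74 (difference 0.38, adjusted p = 0.0446). The Ndufa4 call was lost without any 1 array. With salt and infusion Cox8b was 2.01 ± 0.64 (SE) higher in the knockout (adjusted p = 0.0247), although 1 knockout array, at −0.91, lay within the wild-type range of −1.99 to −0.50, and the call held in 2 of 6 fits without an array. In controls Cox8b was 1.48 higher and did not pass. Of the marker sums given above, that of the cardiac markers was higher in knockout controls (16.8 to 27.1) than in wild-type controls (7.96 to 11), without overlap. The sum of the brown adipocyte markers overlapped, but their mean log2 level was −0.11 to 0.20 in knockout controls, against −0.49 to −0.17 in wild-type controls, without overlap. Their part in these differences was not tested.

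**Figure D5:**
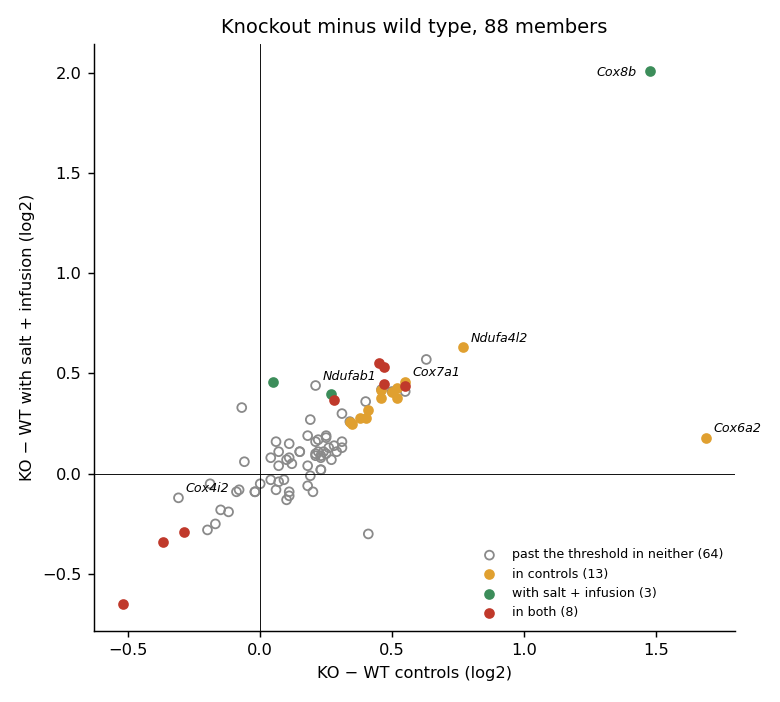
Difference knockout minus wild type of the 88 members, in controls (horizontal) and with salt and infusion (vertical), in log2 units. Filled points passed an adjusted p of 0.05 in controls (13), with salt and infusion (3) or in both (8), and 64 open points in neither. Cox6a2 lies far right and Cox8b far up, away from the rest.

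The other genes of mitochondrial respiration were described by lists chosen with earlier results in view. Of 13 partners of the chain, 2 rose and 0 fell with salt and infusion and with infusion alone in the knockout, and 2 rose and 0 fell and 1 rose and 1 fell in the wild type. Slc25a5, an ADP/ATP carrier, rose in all 4 comparisons with controls, by 0.82 and 1.04 in the knockout and by 0.92 and 0.79 in the wild type for salt with infusion and for infusion alone. Cycs, cytochrome c, rose by 0.77, 0.96 and 0.82 in the 3 comparisons other than infusion in the wild type. Of 23 tested assembly factors 3 and 4 rose and 1 and 1 fell in the knockout, and 2 and 1 rose and 2 and 4 fell in the wild type. Of all genes, 12.7% and 14.4% rose and 12.8% and 16.2% fell in the knockout, and 13.2% and 12.2% rose and 15.5% and 13.7% fell in the wild type. Surf1, an assembly factor of complex IV, fell in all 4, by 0.60 and 0.57 in the knockout and by 0.68 and 0.78 in the wild type on the log2 scale.

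Of 14 regulators of mitochondrial biogenesis, 1 rose and 2 fell with salt and infusion in the knockout, 0 rose and 3 fell with infusion alone, and in the wild type 0 rose and 4 fell in each. The shares of all genes that fell were those just given. Ppargc1a, the coactivator PGC-1α, changed by −0.97 and −1.61 in the knockout and by −1.0 with salt and infusion in wild-type mice, each past the threshold. Nrf1, nuclear respiratory factor 1, changed by −0.28 with infusion in each genotype and by −0.29 with salt and infusion in wild-type mice. Of 16 citric acid cycle genes, 0 rose and 2 fell with salt and infusion and 2 rose and 2 fell with infusion alone in the knockout, and 2 rose and 2 fell and 0 rose and 4 fell in the wild type. Suclg2, a subunit of succinyl-CoA ligase, fell by 0.76 and 0.65 in the knockout and by 0.83 and 1.00 in the wild type on the log2 scale, and Dlat, of the pyruvate dehydrogenase complex, by 0.51 and 0.54 and by 0.40 and 0.44.

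The genes of the mitochondrial ribosome, which makes the subunits encoded by mitochondrial DNA, rose more often than they fell except with infusion alone in the wild type. Of 76 tested, 12 rose and 1 fell with salt and infusion and 18 rose and 0 fell with infusion alone in the knockout, where 12.7% and 14.4% of all genes rose. In the wild type 11 rose and 0 fell and 0 rose and 3 fell, where 13.2% and 12.2% of all genes rose. These counts lie near the background or below it, apart from infusion in the knockout. Of the 13 genes encoded by mitochondrial DNA, 3 fell with salt and infusion in the knockout (ND5 by 0.47, ATP8 by 0.43 and ND2 by 0.50 on the log2 scale), and none passed in the 3 other comparisons. Between genotypes 4 were lower in the knockout in controls and 6 with salt and infusion, where 22.8% and 17.9% of all genes were lower. The largest of these differences was that of ND6, −1.36 and −1.62.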

How the data were processed

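Aortic RNA labelled with Cy3 was hybridised to 24 Agilent arrays, 1 per sample. The deposited scanner intensity values came from Feature Extraction 10.7.1.1, per the file headers (the submitters' processing notes name 9.5.1.1). The processed signal is background-subtracted, per the file headers. The authors' deposited series table holds quantile-normalised intensity on a linear scale, as its columns show. It served as an alternative.

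From there, log2 of the processed signal minus the array's 75th percentile was taken, without control spots and 2910 outlier spots, and replicate spots were averaged. A probe stayed if well above background on all 3 arrays of a group. The brightest probe stood for a gene. limma 3.58.1 (R 4.3.3) fitted the 8 groups with 16 residual degrees of freedom, adjusted over 23506 genes, and was tested on simulated data. The number of arrays limits the precision: an exact permutation test of 3 against 3 cannot go below p = 0.1, so p-values come from this model. Log2 values have no read depth. Groups and replicate numbers came from source names, since titles number 1 group differently. Same-numbered arrays of different groups were checked for shared deviations: 13 of 84 pairs correlated over 0.1, so the numbers were not taken to pair the samples. The members and lists were chosen with earlier results of these data known. Genes named were, for each comparison and complex, the highest and lowest past the threshold or else that of smallest p, besides Cox isoform pairs, the Atp5g genes and complex II. The values of 1 member are not reported here.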

Additional observations from a re-analysis of the deposited data

How the results depend on the processing

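Member counts within 1.5 times of those reported came from 101 fits under settings other than leaving out an array, and 28 such fits moved a count further. In the order knockout infusion, wild-type infusion, knockout salt with infusion and wild-type salt with infusion, the counts were 12, 10, 9 and 9 as reported, 22, 23, 15 and 21 with quantile normalisation and 22, 23, 15 and 20 with the authors' values. With slide as a block, 31 members passed for infusion in the knockout, 0 for wild-type infusion and 14 for knockout salt with infusion. With slide as a random block these were 25, 2 and 5, and 0 and 1 passed between genotypes in controls and with salt and infusion. With only the compared groups fitted, 2 passed for infusion in the knockout, 0 for wild-type infusion, 3 for wild-type salt with infusion and 2 between genotypes with salt and infusion. Without the filter on dim probes 7 passed for infusion in the knockout and 10 between genotypes in controls. Within slide 1, 33 passed for infusion in the knockout, against 43.4% of all genes. Between genotypes with salt and infusion, 18 passed with quantile normalisation, against 25.4% of all genes, and 25 with normexp. Without the third infusion-only arrays, a setting chosen after seeing the data, 37 passed for infusion in the knockout, 17 in the wild type, and 1 for salt during infusion in the knockout. The cause of these moves was not tested.

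Leaving out 1 array gave 5 to 26 members for infusion in the knockout, 5 to 15 in the wild type, 3 to 6 for salt with infusion in the knockout, 4 to 13 in the wild type, 7 to 12 between genotypes in controls, 4 to 21 with salt and infusion, and 0 to 0 for salt and for the genotype differences. Of 72 calls, 20 held in every such fit. The replicate block gave 12, 9, 7 and 8 members in the first order above, and 17 and 9 between genotypes. It moved no count by over 1.5 times. With the mean of a gene's probes Atp5g1 was −0.03 for infusion and −0.04 for salt with infusion in the knockout, and with slide as a block Cox7a2l was 0.18 for salt with infusion in the knockout.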
